A study of Mus musculus with 12 samples.

Results

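Expression of 10 genes at the output and feedback end of BMP and TGF-beta signaling was examined in mouse kidney after inhibition of the salt-inducible kinases. The genes were taken from a fixed list by symbol: the 4 ID proteins (*Id1*, *Id2*, *Id3* and *Id4*), the inhibitory SMADs (*Smad6* and *Smad7*), the pseudoreceptor *Bambi*, and the ligands *Bmp2*, *Bmp4* and *Bmp7*. This list was set with earlier results of these data known. All 10 genes were found among the 55401 gene identifiers of the tables, and all 10 were among the 14159 genes with enough counts to be tested. Kidneys came from male C57BL6 mice, 8 weeks old, with no genetic modification named. They received a single intraperitoneal injection of vehicle (15% 2-hydroxypropyl-beta-cyclodextrin) or of SK-124, an inhibitor of SIK2 and SIK3, at 40 mg/kg. RNA of the whole kidney was sequenced as 1 library per mouse, with 6 mice in each group, and the time between injection and collection is not given separately for these libraries in the sources used here.

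BMP ligands bind paired type I and type II receptors, which phosphorylate SMAD1, SMAD5 and SMAD9. These join SMAD4, enter the nucleus and switch on a small set of genes that respond quickly, among them the *Id* genes and the pathway's own brakes. ID proteins have a helix-loop-helix domain but no basic DNA-binding region, so that they pair with E proteins (*Tcf3*, *Tcf4*, *Tcf12*) and keep them from DNA. SMAD6 and SMAD7 block receptors and receptor-activated SMADs, and BAMBI is a receptor-like protein without a kinase domain. BMP7 is required for the formation of nephrons during kidney development and stays expressed in the adult organ. The salt-inducible kinases phosphorylate CRTC coactivators and hold them in the cytoplasm, away from CREB, the factor that binds cAMP response elements.

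Expected counts summed to between 19244227 and 19771802 per mouse, and the coefficient of variation between mice of a group was 0.101 across the tested genes. The share of counts taken by the 10 most abundant genes was 44.4% to 46.8% in SK-124 mice 1 to 3 and 38.6% to 40.2% in SK-124 mice 4 to 6, around the vehicle range of 39.9% to 43.2%. The labels name no batch, so the results for the 10 genes were also computed with each of these sets of 3 SK-124 mice alone. In whole kidney, fewer cells of a type and less RNA per cell cannot be told apart.

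Of the 10 genes, 7 were lower with SK-124 at an FDR under 0.05 and 0 were higher. FDR is the Benjamini-Hochberg adjusted p of edgeR's quasi-likelihood test over all 14159 genes. Of all tested genes, 24.4% passed this threshold, 13.5% as lower and 10.8% as higher. Because the 10 genes were chosen with earlier results of these data known, values of all tested genes are given beside theirs as a description. They are no test of the set. *Id2*, *Id3*, *Id4*, *Smad6*, *Smad7*, *Bmp2* and *Bmp7* fell, and *Id1*, *Bambi* and *Bmp4* did not pass the test. The median log2 fold change of the 10 genes was -0.73, where that of all tested genes was -0.005. In 5 of the 10 (*Id2*, *Id3*, *Id4*, *Smad6* and *Bmp2*) every SK-124 mouse lay below every vehicle mouse, which was the case in 6.65% of all tested genes, and the reverse held in 6.32%. *Id2* and *Id3* were more than 2-fold lower. Of all tested genes, 1.31% were at least 2-fold lower at an FDR under 0.05.

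**Figure D1:**
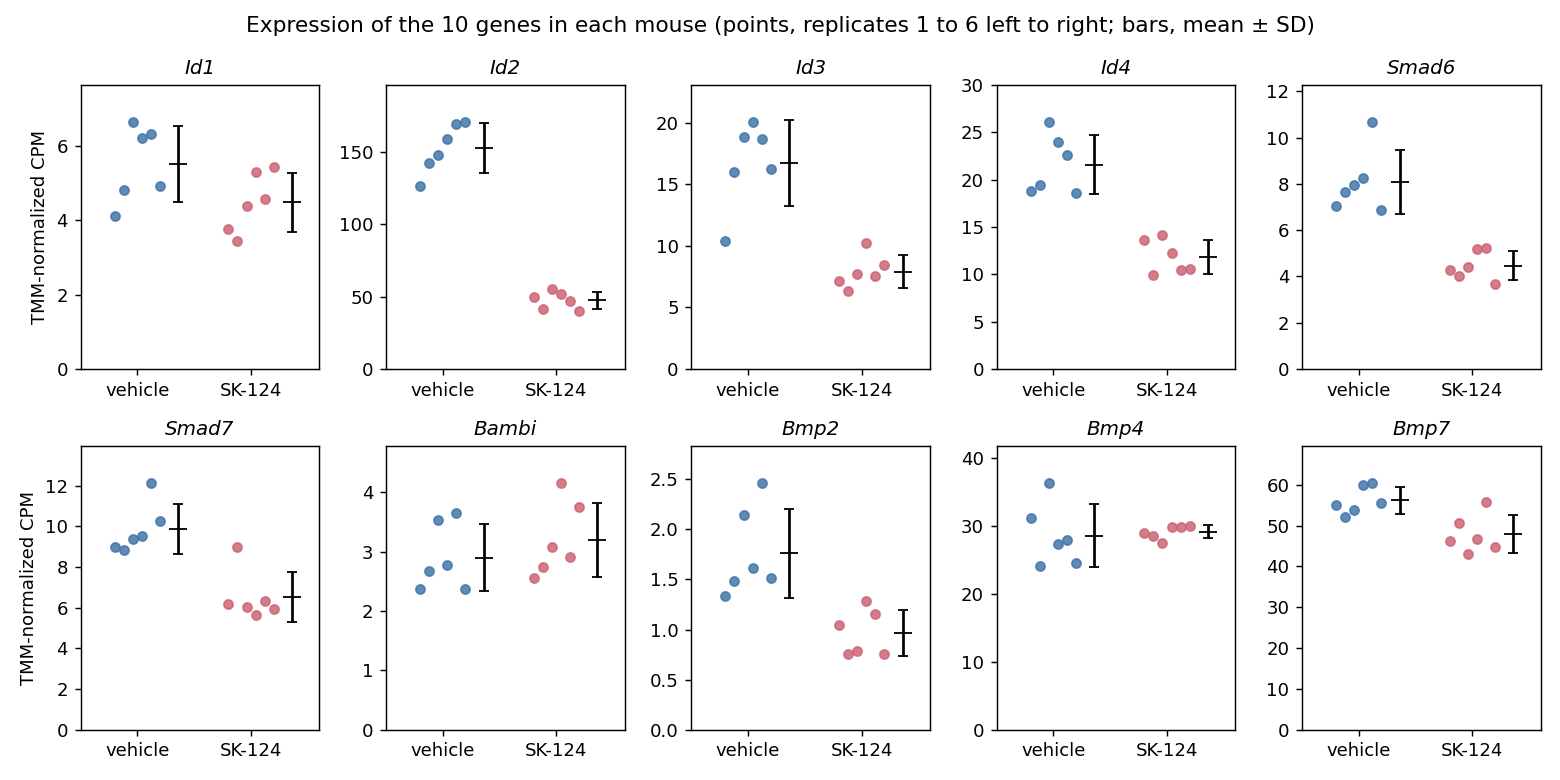
CPM (counts divided by the TMM-scaled library size) of the 10 genes on linear axes that start at 0, with 1 point per mouse in the order of replicate numbers and the mean ± SD beside each group of 6. The groups are apart in *Id2*, *Id3*, *Id4*, *Smad6* and *Bmp2*, 1 SK-124 mouse at 9.0 reaches the vehicle range in *Smad7*, and the groups lie on top of each other in *Bambi* and *Bmp4*.

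*Id2* (ENSMUSG00000020644.9, chr12:25093799-25097140, minus strand, GENCODE M21 on GRCm38) was by far the most abundant of the ID genes and had the largest fall of the 10 genes. Its TMM-normalized CPM in the vehicle group had a lowest value of 127, a median of 154 and a highest value of 171, and the same values in the SK-124 group were 40.1, 48.2 and 55.3. The lowest vehicle mouse thus stood at more than 2 times the highest SK-124 mouse. The group means were 153 ± 17.1 and 47.5 ± 5.85 (SD, n = 6 each), a 3.22-fold lower level with SK-124 (log2 fold change -1.69, SE 0.088, FDR = 3.38e-10). *Id2* ranked 29 of all tested genes by p. The exact two-sided permutation test over the mice gave p = 0.00216, the smallest that 6 against 6 allows, here and wherever the groups did not overlap.

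*Id3* (ENSMUSG00000007872.3, chr4:136143497-136145755, plus strand) came next in size of change. The lowest, median and highest CPM are given in this order from here on, and ran from 10.4 over 17.5 to 20.1 in vehicle-treated mice and from 6.31 over 7.62 to 10.2 in SK-124-treated mice. The groups did not overlap, but vehicle mouse 1 at 10.4 stood next to SK-124 mouse 4 at 10.2, well under the other vehicle mice. The means were 16.7 ± 3.48 and 7.91 ± 1.34, a 2.11-fold lower level (log2 fold change -1.07, SE 0.14, FDR = 2.25e-05).

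*Id4* (ENSMUSG00000021379.2, chr13:48261228-48266026, plus strand) fell 1.83-fold. Its CPM ran from 18.6 over 21 to 26.1 in vehicle-treated mice and from 9.88 over 11.4 to 14.2 in SK-124-treated mice, again with no overlap. The log2 fold change was -0.87 (SE 0.11, FDR = 1.07e-05). A pair of genes on the opposite strand overlap *Id4*, and the sources do not state whether strand was used in counting. They were read little: *A330033J07Rik* reached at most 2.73 expected counts in a mouse, and *Gm49291* at most 30, with a log2 fold change of -0.15 (FDR = 0.670), against 169 to 511 for *Id4*.

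*Id1* (ENSMUSG00000042745.9, chr2:152736251-152737410, plus strand), often used as the readout of BMP signaling, was the exception in its family. Its CPM ran from 4.10 over 5.56 to 6.64 in vehicle-treated mice and from 3.45 over 4.46 to 5.42 in SK-124-treated mice. The ranges overlapped, with 2 of 6 SK-124 mice below the lowest vehicle mouse. The log2 fold change was -0.29 (SE 0.14, FDR = 0.148, exact permutation p = 0.0909). It was -0.50 with SK-124 mice 1 to 3 alone (FDR = 0.0563) and -0.10 with mice 4 to 6 alone (FDR = 0.715). *Id1* had 59 to 133 counts per mouse and *Id2* 714 to 3607.

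Promoter sequence from RefSeq (GRCm38.p6) was at hand for *Id2*, *Id3*, *Id4*, *Smad6* and *Bmp4*, 5 of the 10 genes. It is shown for the 3 ID genes that fell, as the 250 bases before the RefSeq start, 5′ to 3′ on the gene's own strand. Sequence farther from the start was not searched. Capitals mark the motifs found. The windows are *Id2* chr12:25096093-25096342 (minus strand), *Id3* chr4:136143572-136143821 (plus strand) and *Id4* chr13:48260866-48261115 (plus strand). Those of *Id2* and *Id3* lie inside the span of the longer GENCODE gene, and that of *Id4* lies before it.
Id2: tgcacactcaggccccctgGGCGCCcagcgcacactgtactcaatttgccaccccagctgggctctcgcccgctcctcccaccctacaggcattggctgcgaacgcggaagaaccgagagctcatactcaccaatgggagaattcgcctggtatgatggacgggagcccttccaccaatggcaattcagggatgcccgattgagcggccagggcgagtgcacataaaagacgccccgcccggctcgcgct
Id3: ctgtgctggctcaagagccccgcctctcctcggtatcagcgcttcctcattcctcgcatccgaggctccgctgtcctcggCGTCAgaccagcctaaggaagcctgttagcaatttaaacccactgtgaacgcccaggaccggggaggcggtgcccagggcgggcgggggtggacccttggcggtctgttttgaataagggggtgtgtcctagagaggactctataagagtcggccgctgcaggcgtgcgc
Id4: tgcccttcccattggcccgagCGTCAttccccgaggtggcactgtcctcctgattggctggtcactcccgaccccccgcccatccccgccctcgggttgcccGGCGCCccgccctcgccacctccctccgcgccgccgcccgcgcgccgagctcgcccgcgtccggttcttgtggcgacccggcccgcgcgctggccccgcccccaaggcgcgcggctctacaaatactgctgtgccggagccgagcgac
The motifs searched, on both strands and over the window that also includes 50 bases after the start, were the full cAMP response element TGACGTCA, its shorter form TGACG (which the full element contains), the SMAD palindrome GTCTAGAC and the GC-rich SMAD element GGCGCC. The full element was in none of the 5 windows and in 1.79% of 32851 RefSeq promoters of the same length. TGACG, read as CGTCA on the opposite strand, began 170 bases before the start in *Id3* and 229 bases before it in *Id4*, and 20.8% of all promoters hold it. GGCGCC began 231 bases before the start in *Id2* and 148 bases before it in *Id4*, and 11.9% of all promoters hold it. These are matches of letters and are given as a description.

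The 4 ID genes did not respond to the same extent. For each pair of genes, the log2 ratio of their CPM in each mouse was compared between the groups by an exact two-sided permutation test, with p adjusted over the 10 pairs compared. The fall of *Id2* exceeded that of *Id3* by 0.66 on the log2 scale (95% interval of the difference -0.97 to -0.36, adjusted p = 0.00433) and that of *Id4* by 0.83 (-1.05 to -0.61, adjusted p = 0.00433). *Id1* differed in its response from *Id2* by 1.41 (1.11 to 1.73), from *Id3* by 0.75 (0.58 to 0.91) and from *Id4* by 0.58 (0.27 to 0.88), each with an adjusted exact permutation p of 0.00433. *Id3* and *Id4* could not be separated, with a difference of -0.18 (-0.50 to 0.16, adjusted exact permutation p = 0.225). The order of the responses was therefore *Id2*, then *Id3* and *Id4* without a resolved order between them, then *Id1*.

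**Figure D2:**
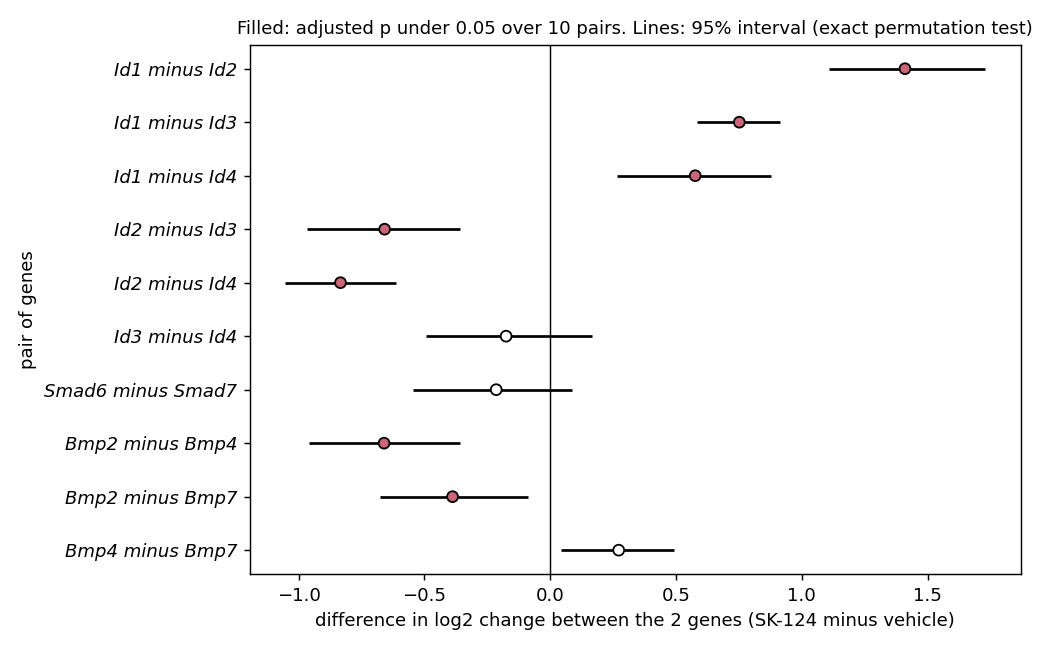
Difference in log2 change between the genes of each of 10 pairs, SK-124 minus vehicle, on the log2(CPM + 0.5) scale, with lines for the 95% interval from the exact permutation test. Values below 0 mean that the first gene fell more, and filled points passed an adjusted p under 0.05. All 5 pairs of *Id1* or *Id2* with another ID gene lie away from 0, from -0.83 to 1.41.

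*Id2* made up most of the ID mRNA, and the family's total was lower with SK-124 in all 6 mice. Summed over the 4 genes as TPM (transcript abundance corrected for gene length), ID mRNA was 163 ± 23.4 in vehicle-treated mice (131.6 to 191) and 52.4 ± 8.10 in the SK-124 group (38.8 to 62.3). *Id2* made up 82.4% ± 2.27 of this sum in vehicle-treated mice and 71.6% ± 3.17 in SK-124-treated mice (SD, n = 6 each). The summed TPM of the E proteins, the partners that ID proteins bind, was 28.2 ± 4.98 and 23.3 ± 3.67, with overlapping ranges. The ratio of ID to E protein mRNA thus stood at 5.06 to 7.21 in vehicle-treated mice and at 1.89 to 3.0 in SK-124-treated mice. These sums rest on values already tested gene by gene and are given without a test.

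**Figure D3:**
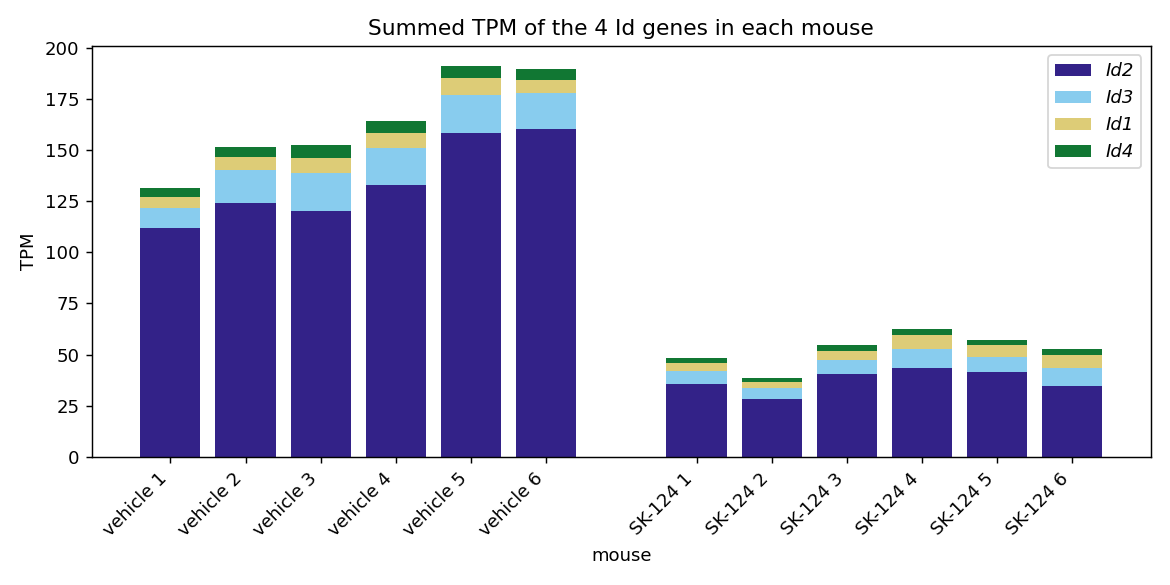
TPM of the ID genes stacked for each of the 12 mice on an axis that starts at 0. The sums lie between 131.6 and 191 in vehicle-treated mice and between 38.8 and 62.3 in SK-124-treated mice, and *Id2* is the largest segment in each mouse.

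Within the groups, *Id1* and *Id3* rose and fell together from mouse to mouse. After removal of the group means, the Pearson correlation of their log2(CPM + 0.5) over the 12 mice was 0.88 (permutation p = 7.0e-05, adjusted over 6 pairs 0.00042) and Spearman's rho was 0.86 (permutation p = 0.00066, adjusted 0.00396). Without the 2 mice farthest from the median of *Id1* (vehicle mouse 1 and SK-124 mouse 2), r was 0.82. It was 0.90 in the vehicle group and 0.88 in the SK-124 group. For the other 5 pairs r lay between 0.31 and 0.56, with adjusted permutation p from 0.156 to 0.347. These were unsteady: r of *Id1* with *Id2* was 0.047 without vehicle mouse 1 and 0.599 without SK-124 mouse 6, r of *Id2* with *Id3* was 0.275 without vehicle mouse 1, and on log2(TPM + 0.1) all 5 pairs passed, with r from 0.610 to 0.685. *Id1* and *Id4* had r = 0.92 within the vehicle group and -0.0095 within the SK-124 group, a difference that was not tested. The comparison with *Id2* took in the 13008 tested genes averaging 1 CPM or more. Outside the 10 genes, those whose deviations tracked *Id2* most closely over the 12 mice were *0610009L18Rik* (r = 0.918), *Phlda1* (r = 0.872) and *Rps6ka1* (r = 0.863), given as a description. Of these, *Phlda1* fell by 0.46 and *Rps6ka1* by 0.53 on the log2 scale (FDR = 0.0331 and 0.000222), and *0610009L18Rik* had a log2 fold change of -0.11 (FDR = 0.666).

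Both inhibitory SMADs fell. *Smad6* (ENSMUSG00000036867.7, chr9:63953076-64022059, minus strand), which mainly restrains BMP receptors, had a CPM from 6.87 over 7.80 to 10.7 in vehicle-treated mice and from 3.65 over 4.36 to 5.21 in SK-124-treated mice. The groups did not overlap, and vehicle mouse 5 at 10.7 stood above the other vehicle mice. The means were 8.08 ± 1.38 and 4.47 ± 0.629, a 1.81-fold lower level (log2 fold change -0.85, SE 0.12, FDR = 4.95e-05). The *Smad6* window was the only one of the 5 at hand with the SMAD palindrome, which 0.213% of all RefSeq promoters hold. It begins 4 bases before the start and so spans it, and is shown in capitals in 30 bases at chr9:64022045-64022074 (minus strand, GRCm38.p6).
Smad6: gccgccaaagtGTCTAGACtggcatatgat

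*Smad7* (ENSMUSG00000025880.11, chr18:75367529-75395935, plus strand), a brake on both BMP and TGF-beta receptors, had a CPM from 8.82 over 9.46 to 12.1 in vehicle-treated mice and from 5.64 over 6.12 to 9.0 in SK-124-treated mice. Of the 6 SK-124 mice, 5 lay below the lowest vehicle mouse, and mouse 2 at 9.0 lay within the vehicle range. The log2 fold change was -0.60 (SE 0.11, FDR = 0.000718, exact permutation p = 0.00649). The responses of *Smad6* and *Smad7* differed by -0.21 (95% interval -0.54 to 0.09, adjusted exact permutation p = 0.202), so that a larger fall of *Smad6* was not resolved.

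*Bambi* (ENSMUSG00000024232.2, chr18:3507923-3516404, plus strand) gave no call in either direction. Its CPM ran from 2.37 over 2.72 to 3.65 in vehicle-treated mice and from 2.55 over 2.99 to 4.16 in SK-124-treated mice. The ranges overlapped, with 2 SK-124 mice above the highest vehicle mouse and 0 below the lowest. The log2 fold change was 0.15 (SE 0.15, FDR = 0.524), and it was -0.048 with SK-124 mice 1 to 3 alone (FDR = 0.902).

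The BMP ligands split by gene. *Bmp2* (ENSMUSG00000027358.6, chr2:133552159-133562885, plus strand), the least abundant of the 10 genes, had 27 to 52 counts per vehicle-treated mouse and 13 to 26 per SK-124-treated mouse. As CPM this was 1.33 over 1.56 to 2.47 and 0.760 over 0.913 to 1.29, with no overlap. The means were 1.76 ± 0.444 and 0.964 ± 0.229, a 1.83-fold lower level (log2 fold change -0.86, SE 0.20, FDR = 0.00424). With SK-124 mice 4 to 6 alone the log2 fold change was -0.71 (FDR = 0.0743). On the log2(TPM + 1) scale, where the added 1 exceeds the gene's TPM, the difference was -0.26.

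*Bmp7* (ENSMUSG00000008999.7, chr2:172868012-172940321, minus strand), the ligand with the most counts among the 10 genes, fell by a small amount. Its CPM ran from 52.1 over 55.2 to 60.5 in vehicle-treated mice and from 43.1 over 46.5 to 55.8 in SK-124-treated mice. Of the 6 SK-124 mice, 5 lay below the lowest vehicle mouse, and mouse 5 at 55.8 lay among the vehicle mice. The log2 fold change was -0.23 (SE 0.065, FDR = 0.0153, exact permutation p = 0.0130), a 1.17-fold lower level. With SK-124 mice 4 to 6 alone it was -0.19 (FDR = 0.144), and from TPM it was as low as -0.38.

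*Bmp4* (ENSMUSG00000021835.15, chr14:46383520-46390669, minus strand) did not pass the test. Its CPM ran from 24.0 over 27.7 to 36.4 in vehicle-treated mice and from 27.5 over 29.4 to 30.1 in SK-124-treated mice, so that all SK-124 mice lay inside the vehicle range. The log2 fold change was 0.029 (SE 0.085, FDR = 0.843), with a sign that turned under other scalings (-0.078 with library totals and -0.10 on log2(TPM + 0.1)). *Gm15217* and *Gm15222* overlap it on the opposite strand, with at most 183 and 57 expected counts in a mouse and log2 fold changes of 0.029 (FDR = 0.901) and -0.18 (FDR = 0.478). None of the searched motifs was in the *Bmp4* window.

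*Bmp2* fell more than both other ligands. On log2(CPM + 0.5), its response differed from that of *Bmp4* by -0.66 (95% interval -0.96 to -0.36, adjusted exact permutation p = 0.00722). From that of *Bmp7* it differed by -0.39 (-0.68 to -0.09, adjusted exact permutation p = 0.0278). On this scale the call against *Bmp7* was lost without SK-124 mouse 2, 3 or 6 (adjusted exact permutation p = 0.0588, 0.0557 and 0.0588). The size depended on the added 0.5, which is large beside the CPM of *Bmp2*. On log2(CPM + 0.1) the differences were -0.84 from *Bmp4* and -0.57 from *Bmp7* (adjusted exact permutation p = 0.00722 and 0.0124). *Bmp4* and *Bmp7* differed by 0.27 (0.04 to 0.49), with a raw exact permutation p of 0.0455 and an adjusted one of 0.0568. That pair passed the threshold without vehicle mouse 3 (adjusted 0.0155) or without SK-124 mouse 5 (adjusted 0.0487).

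**Figure D4:**
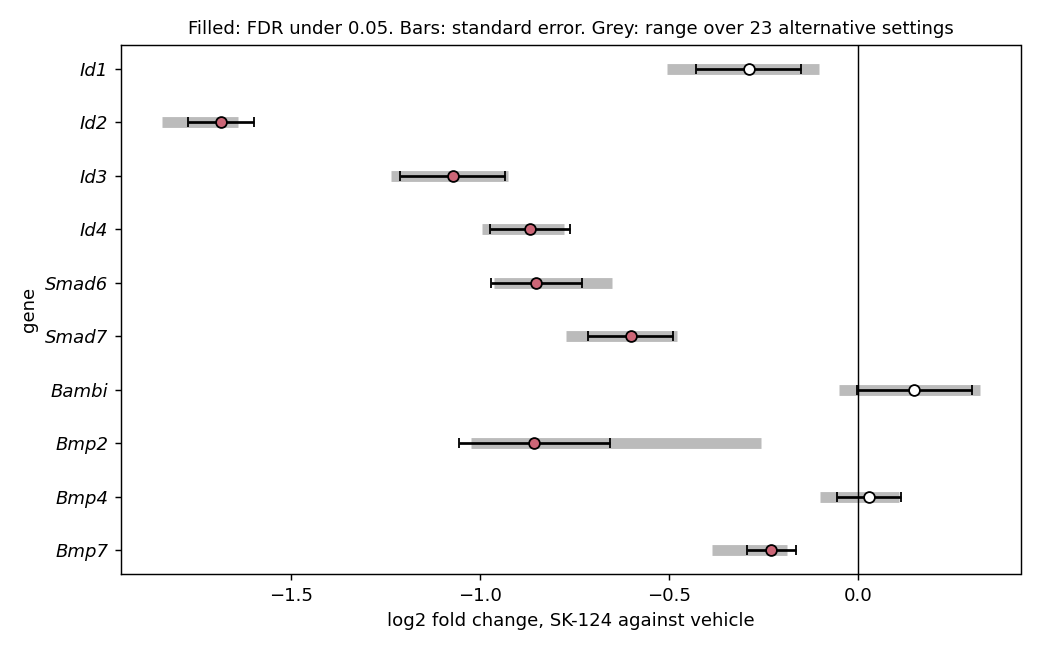
Log2 fold change of each of the 10 genes, SK-124 against vehicle, with bars for the standard error and filled points for an FDR under 0.05. The grey band is the range over 23 alternative settings, and it crosses 0 for *Bambi* and *Bmp4* and for no other gene.

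Compared per gene length, the levels of the 10 genes in vehicle-treated mice covered more than 2 orders of magnitude. As TPM (mean ± SD, n = 6), *Id2* stood at 135 ± 20.3, followed by *Id3* at 16.4 ± 3.29, *Bmp7* at 15.0 ± 1.43 and *Bmp4* at 14.9 ± 1.76, whose ranges overlapped each other. *Id1* at 6.82 ± 1.16 and *Id4* at 5.43 ± 0.596 overlapped, as did *Smad7* at 2.89 ± 0.399 and *Smad6* at 2.7 ± 0.537, and *Bambi* at 0.547 ± 0.109 and *Bmp2* at 0.485 ± 0.128. Between these sets the ranges over mice were apart. With SK-124, *Id2* was still first at a TPM of 37.5 ± 5.59. *Id3* at 7.13 ± 1.6 moved from place 2 to place 4, behind *Bmp4* at 14.0 ± 2.09 and *Bmp7* at 11.5 ± 1.95. The lowest places were again those of *Bambi* (0.555 ± 0.152) and *Bmp2* (0.242 ± 0.0739).

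Around these genes, 75 other genes of the pathway were listed and 67 were tested, of which 16 were higher, 16 were lower and 35 did not pass, with a median log2 fold change of -0.038. The balance depended on the scaling, with 13 higher and 22 lower by library totals, 7 and 18 by limma on log2(TPM + 1), and 6 and 19 on log2(TPM + 0.1). Called genes made up 47.8% of those tested, beside 24.4% of all genes. The lists were chosen with earlier results of these data known, so these shares are given as a description. Genes named here are up to 3 per list with the smallest p, and any others were chosen after their values were seen. Among the E proteins, *Tcf3* fell by 0.46 on the log2 scale (FDR = 7.94e-05), from 17.6 to 20.4 CPM down to 11.5 to 14.9, and *Tcf4* and *Tcf12* were not called. None of 11 receptors was higher and 4 were lower. These were the type II receptors *Acvr2b* (log2 fold change -0.52, FDR = 0.00283) and *Tgfbr2* (-0.34, FDR = 0.00266) and the BMP type I receptor *Acvr1* (-0.34, FDR = 0.0289). Outside the rule, the co-receptor *Eng* was lower close to the threshold (-0.28, FDR = 0.0496). Only *Acvr2b* kept its call in every alternative setting, with a highest FDR of 0.0346. The highest FDR was 0.0574 for *Tgfbr2*, 0.234 for *Acvr1* and 0.283 for *Eng*.

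Of 6 receptor-activated and common SMADs, 2 were higher, 2 were lower and 2 were not called. Among those that carry the BMP signal, *Smad5* was not called (log2 fold change -0.19, FDR = 0.181, named outside the rule). *Smad1* was higher (log2 fold change 0.42, FDR = 0.00250), with 5 of 6 SK-124 mice above the highest vehicle mouse. *Smad9* was lower (-1.57, FDR = 0.00609) at only 154 counts over the vehicle group and 47 over the SK-124 group. Its CPM ranged from 0.204 to 1.71 in vehicle-treated mice and from 0.251 to 0.743 in SK-124-treated mice, so that 1 vehicle mouse lay below all SK-124 mice (exact permutation p = 0.0216). *Smad3*, which carries the TGF-beta signal, was lower (-0.36, FDR = 0.010), and *Smad4*, named outside the rule, was higher (0.29, FDR = 0.0289). None of these calls held in every alternative setting. The highest FDR was 0.446 for *Smad1*, 0.695 for *Smad4*, 0.0862 for *Smad3* and 0.0622 for *Smad9*. The log2 fold change went down to 0.14 for *Smad1* and 0.12 for *Smad4*.

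Ligands and their extracellular antagonists moved in both directions. *Grem1*, a secreted BMP antagonist, went from 4 counts over the whole vehicle group, with 3 mice at 0, to 109 counts over the SK-124 group (FDR = 3.47e-06), too few for a fold change to be given. The antagonists *Nog* (0.86, FDR = 0.0157) and *Fst* (0.88, FDR = 0.000742), named outside the rule, were also higher. *Nog* had only 7 to 11 counts per vehicle-treated mouse and 9 to 22 per SK-124-treated mouse, and its groups overlapped in CPM. The highest FDR over the alternative settings was 0.0634 for *Nog* and 0.0526 for *Fst*. In contrast, *Sostdc1*, an antagonist expressed in distal tubule, fell by 0.62 (FDR = 3.82e-05). In all, 4 of 16 tested extracellular modulators were higher and 4 were lower. Beside *Sostdc1*, the lower ones were *Kcp* (-0.43, FDR = 0.000453), *Fstl1* (-0.36, FDR = 0.0222) and *Rgma* (-0.45, FDR = 0.0492), named outside the rule. Their highest FDR over the alternative settings was 0.0175 for *Kcp*, 0.247 for *Fstl1* and 0.186 for *Rgma*. Of 9 tested ligands 3 were higher and 2 were lower: *Inhbb*, an activin subunit, rose (2.16, FDR = 8.73e-06), and *Tgfb2* (-1.48, FDR = 1.66e-05) and *Gdf10* (-1.04, FDR = 3.50e-05) fell.

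Of 10 other intracellular brakes, 2 were higher and 1 was lower. *Nedd4l*, a ubiquitin ligase that acts on SMADs and on the epithelial sodium channel, rose from 74.2 ± 6.99 to 155 ± 8.56 CPM (log2 fold change 1.06, FDR = 2.48e-09), and the corepressor *Tgif1* rose by 0.75 (FDR = 3.87e-06). The corepressor *Ski* fell (-0.29, FDR = 0.00705). Among 12 tested other target genes, 5 were higher and 2 were lower. *Atoh8*, a BMP target, fell (-1.38, FDR = 0.000431), as did *Gata2* (-0.61, FDR = 1.45e-05). Named outside the rule, *Tagln* (0.55, FDR = 0.00519), *Runx1* (0.64, FDR = 0.00828), *Tgfbi* (0.49, FDR = 0.0177) and *Acta2* (0.41, FDR = 0.0452) were higher. Over the alternative settings their highest FDR ran from 0.0935 (*Tagln*) to 0.365 (*Acta2*).

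**Figure D5:**
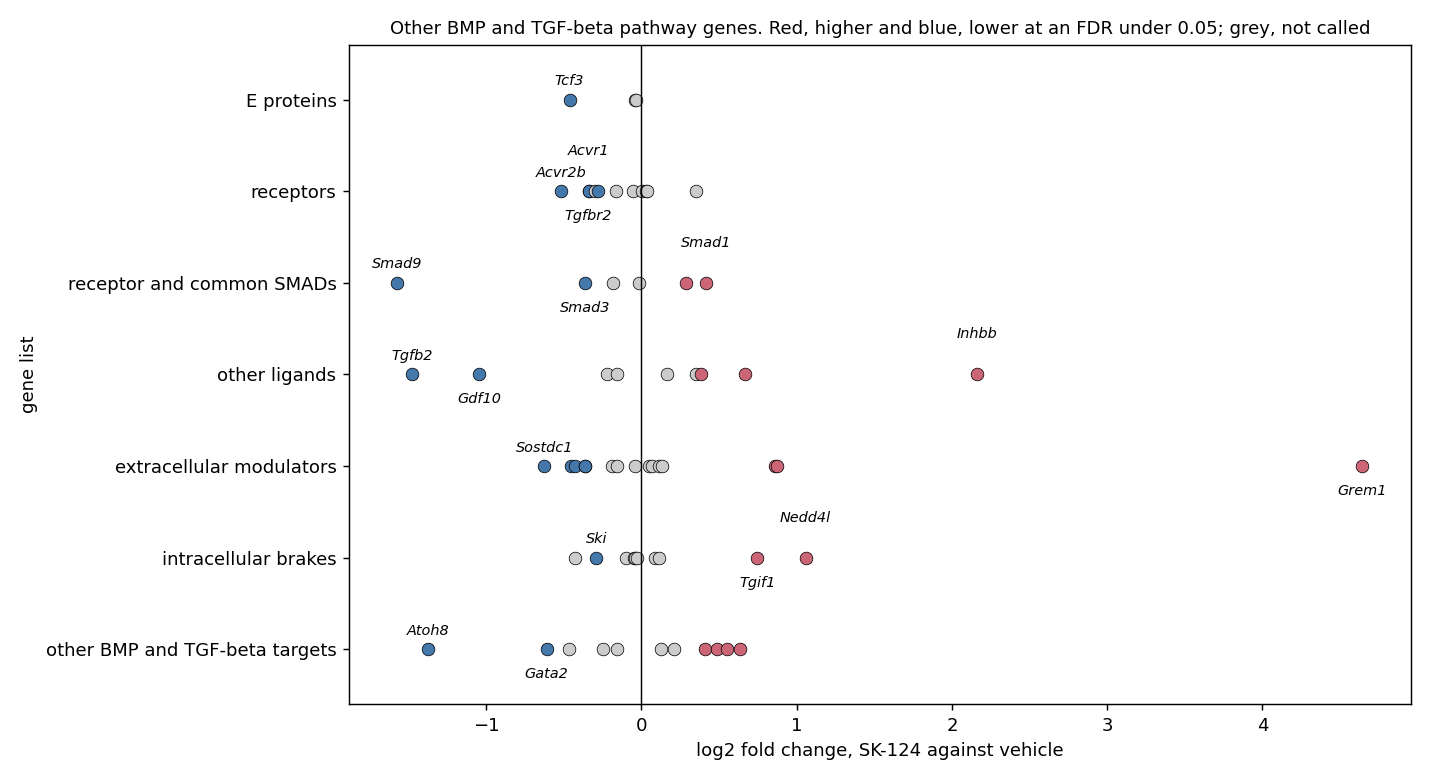
Log2 fold change, SK-124 against vehicle, of 65 of the 67 tested pathway genes in 7 lists, with the genes named by the rule labelled. Red points were higher and blue points lower at an FDR under 0.05, and *Grem1* lies farthest to the right of the genes plotted. The place of *Grem1* rests on 4 counts in the vehicle group and gives no fold change, and *Tgfbr2* and *Acvr1* share a place at -0.34.

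Markers of kidney cell types were read beside these values, since ID genes and SMAD brakes are expressed in endothelial and stromal as well as epithelial cells. Of 10 endothelial markers 0 were higher and 3 were lower (*Kdr* at -0.85, *Tek* at -0.66 and *Ehd3* at -0.87), and the other 7 were not called, from *Emcn* at -0.24 to *Cdh5* at 0.29. The median of the 10 was -0.22. Their summed CPM was 351 to 463 in vehicle-treated mice and 284 to 439 in SK-124-treated mice. Of 6 stromal markers 2 were lower, with sums of 105 to 156 and 89.7 to 146. Of 5 tested immune markers 2 were lower (*Cd68* at -0.60 and *Cd79a* at -1.75), with a median of -0.60. Their sums of 44.9 to 53.0 and 46.5 to 54.4 were mostly *Csf1r* (mean 36.8 and 41.6 CPM, log2 fold change 0.18, FDR = 0.0578). The 6 proximal tubule markers and the 3 distal convoluted tubule markers gave no call. Of 3 markers of the loop of Henle 1 was higher, of 4 of the collecting duct 1 was higher and 2 were lower, and of 4 podocyte markers 1 was higher. The part of these markers in the results for the 10 genes was not tested. Of 5 adrenal markers 3 were at 0 in every mouse, and red cell and fat markers gave no call.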

How the data were processed

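The authors deposited, for each of the 12 mice, an RSEM gene table with expected counts (estimated reads per gene, not normalized). The authors' TPM stands in the same tables, as does a posterior SD of the count, a score that was 0 for the 10 genes in each mouse. The submitters' processing notes name FastQC, STAR 2.7.2b, RSEM 1.3.0, DESeq2 and mm10. Libraries were sequenced on a BGISEQ500, and strand use is not stated. GENCODE M21 matched 54349 identifiers with their version.

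Expected counts were rounded, scaled with TMM, passed through filterByExpr and compared by treatment in edgeR's quasi-likelihood framework, with Benjamini-Hochberg adjustment over 14159 genes (methods tested on simulated data). SE is the log2 fold change over the square root of F. Permutation tests were two-sided on log2(CPM + 0.5) over 924 assignments, or 100000 within-group resamples for correlations. No pair of mice looked like 1 library deposited under a pair of labels (smallest chi-square per degree of freedom 4.69 over 30 pairs). Where nothing else is said, intervals cover the spread between these mice. The members and lists were chosen with earlier results of these data known. Genes named by rule are the 10 members, up to 3 genes per pathway list with the smallest p and an FDR under 0.05, and the 3 genes most alike *Id2*. Other pathway genes and single markers were named after their values were seen. Of the listed pathway genes, 2 stay in the counts but are otherwise not reported here. Software was Python 3.11.15 with scipy 1.17.1, pandas 2.3.3 and numpy 2.4.6, and R 4.3.3 with DESeq2 1.42.0, edgeR 4.0.16 and limma 3.58.1. Alternatives were DESeq2, RLE, library totals, other filters, a replicate block, robust dispersion, limma on TPM, other pseudocounts, each mouse left out, and sets of 3 SK-124 mice.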

Additional observations from a re-analysis of the deposited data

Results flagged for a closer look

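In *Smad6*, vehicle mouse 5 stood apart from the other vehicle mice at 10.7 CPM, with a gap to its nearest neighbour of 0.633 of the group's range. In *Smad7*, SK-124 mouse 2 stood apart at 9.0 CPM, with a gap of 0.801 of the range. Groups of 6 are flagged when this share exceeds Dixon's critical value, and chance flags about 1 in 20 of the 58 groups looked at. Both genes stayed lower with SK-124 when any 1 mouse was left out, with log2 fold changes from -0.90 to -0.75 for *Smad6* and from -0.71 to -0.53 for *Smad7*.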

How the results depend on the processing

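*Id2*, *Id3*, *Id4*, *Smad6* and *Smad7* stayed lower at an FDR under 0.05 in each of 23 alternatives, and *Id1* was called in none of them. With SK-124 mice 4 to 6 alone, *Bmp2* (-0.71, FDR = 0.0743) and *Bmp7* (-0.19, FDR = 0.144) lost their call, and the pathway genes called lower went from 16 to 9. With SK-124 mice 1 to 3 alone, all genes called went from 3453 to 2298, pathway genes called higher from 16 to 10, and *Bambi* to -0.048, while *Bmp2* (-1.02, FDR = 0.0158) and *Bmp7* (-0.27, FDR = 0.0264) kept their call. Pathway genes called higher were 7, and lower 18, by limma on log2(TPM + 1), and 6 and 19 on log2(TPM + 0.1). *Bmp4* was at -0.078 with library totals and at -0.094 and -0.10 on those TPM scales, where the median of all genes shifted to -0.12, -0.11 and -0.14. Calls were 1536 higher and 1917 lower with TMM, 777 and 3058 with library totals, 500 and 2130 by limma on log2(TPM + 1), 498 and 2118 on log2(TPM + 0.1), and 1769 and 1811 with DESeq2. On log2(TPM + 0.1), r was 0.610 for *Id1* with *Id2*, 0.660 for *Id1* with *Id4*, 0.648 for *Id2* with *Id3*, 0.632 for *Id2* with *Id4* and 0.685 for *Id3* with *Id4*, each with an adjusted permutation p under 0.05. The cause of these shifts was not tested.

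With 1 mouse left out in turn, genes called ran from 2960 to 3942, pathway genes called higher from 13 to 17 and lower from 13 to 16, and members called lower were 7 each time. The difference in response was 0.23 to 0.36 for *Bmp4* against *Bmp7* and -0.45 to -0.33 for *Bmp2* against *Bmp7*. With a replicate block, 3466 genes were called, with 7 members lower and 0 higher. The replicate numbers belong to different mice, and the correlation of same-numbered mice was -0.131 to 0.217, with 2 of 6 numbers matching best with themselves. Such correlations cannot tell whether same-numbered mice also shared a cage or a day. Depth limits mainly *Bmp2*, with 13 to 52 counts per mouse.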
